A study of Mus musculus with 24 samples.

Results

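Tuft cells are rare chemosensory cells of the intestinal epithelium. They detect luminal metabolites and parasites through a taste-type signalling cascade that ends in opening of the cation channel TRPM5, and they release the cytokine IL-25 and eicosanoids, which engage type 2 immunity. Their formation depends on the POU-domain factor POU2F3, and DCLK1 is the marker most often used to stain them. 9 genes of this cell type were described here: Dclk1, Trpm5, Pou2f3, Gfi1b, Il25, Alox5, Ptgs1, Sh2d6 and Rgs13. Each was found by matching the gene identifiers of the count files to mouse symbols, 1 identifier per symbol, so 9 of the 45513 genes in the files were members.

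The libraries were bulk RNA-seq of sorted EpCAM+ tdTom+ cells from crypt-enriched fractions of the proximal small intestine (SI) and the colon. The adult C57BL/6 mice were homozygous for Atoh1(WT)CreERT2 (WT) or for Atoh1(9S/T-A)CreERT2 (9S/T-A), in which phosphorylated serine and threonine sites of the secretory-lineage factor ATOH1 were changed to alanine. All mice, WT included, carried CreERT2 at the Atoh1 locus and the R26R tdTom reporter and received 3 mg of tamoxifen the day before collection. Each of the 4 groups (each genotype in each tissue) held 6 libraries numbered 2 to 7, with males and females in each. Numbers 2, 5 and 7 were female and numbers 3, 4 and 6 male in every group. The sort selects cells that drove Cre from Atoh1. In the study's staining, Dclk1+ tuft cells carried no tdTom at this time, so the sort was not aimed at mature tuft cells. Libraries held 35967875 to 65796932 counted reads. Secretory markers were abundant: 6 goblet cell markers summed to a mean of 248000 CPM (read counts scaled to a common library size) in WT SI, against 78.4 CPM for the 9 tuft cell genes. All 9 tuft cell genes had counts in every group. In bulk RNA, fewer cells of a type and less RNA per cell cannot be told apart.

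Positions are those of the count files, on GRCm38, and counts cover the exons of each gene. Dclk1 (ENSMUSG00000027797, chr3:55242364-55539068) encodes a microtubule-associated kinase. Trpm5 (ENSMUSG00000009246, chr7:143069153-143094642) encodes the channel of the taste cascade. Pou2f3 (ENSMUSG00000032015, chr9:43123939-43210369) and Gfi1b (ENSMUSG00000026815, chr2:28609450-28621982) encode transcription factors. Il25 (ENSMUSG00000040770, chr14:54932695-54935837) encodes the cytokine. Alox5 (ENSMUSG00000025701, chr6:116410077-116461178) and Ptgs1 (ENSMUSG00000047250, chr2:36230426-36252272) encode the enzymes that start leukotriene and prostaglandin synthesis. Sh2d6 (ENSMUSG00000052631, chr6:72513644-72521634) encodes an SH2-domain protein, and Rgs13 (ENSMUSG00000051079, chr1:144138654-144177372) a regulator of G-protein signalling.

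Promoter windows from RefSeq (GRCm38.p6, 250 bases before to 50 after a gene's start) were held for 7 of the 9 genes, 8 windows in all because Dclk1 has 2; Pou2f3 and Il25 had none. The search was exploratory and was made after the expression values had been seen. 16 strings were searched on both strands, 14 of them distinct when a string and its reverse complement are counted once, and several of them overlap one another. The octamer ATGCAAAT, the motif of POU2-family factors such as POU2F3, was in 1.74% of all 32851 windows and in 0 of the 7 genes. The E-box CAGCTG was in 16.3% of all windows and also in 0 of the 7. Of the 14 distinct strings, 10 matched no member and 4 did: CAGATG (17.2% of all windows) in Rgs13, GATAAG (7.44%) in Rgs13 and Gfi1b, AGATAA (11.2%) in Rgs13, and GCAAAT (10.5%) in Gfi1b. All 4 are short strings with high shares among all windows. The absence of a string says only that these letters are not in the window. The 120 bases before the RefSeq start are shown for Gfi1b, which had the largest genotype difference in SI among the 8 genes tested, for Rgs13, which holds 3 of the 4 matching strings, and for Trpm5 and Sh2d6, which varied most between libraries among the 8 genes tested. For Sh2d6 the RefSeq start lies inside the span of the count files, so its stretch is within the gene as counted. Capitals mark any of the 14 strings, and all lie on the minus strand of the genome, written 5′ to 3′ in the gene's direction.
Gfi1b (chr2:28621983-28622102): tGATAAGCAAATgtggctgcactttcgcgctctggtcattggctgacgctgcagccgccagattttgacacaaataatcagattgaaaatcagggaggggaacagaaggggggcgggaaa
Rgs13 (chr1:144177373-144177492): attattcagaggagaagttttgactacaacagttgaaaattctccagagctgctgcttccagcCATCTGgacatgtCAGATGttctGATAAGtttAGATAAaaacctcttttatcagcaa
Trpm5 (chr7:143094643-143094762): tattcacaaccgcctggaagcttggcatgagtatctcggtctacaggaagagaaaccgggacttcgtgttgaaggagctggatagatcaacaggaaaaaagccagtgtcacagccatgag
Sh2d6 (chr6:72520037-72520156): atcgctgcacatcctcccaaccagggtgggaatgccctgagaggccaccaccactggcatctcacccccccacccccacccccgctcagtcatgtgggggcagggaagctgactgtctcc

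Among the 59 other genes of tuft cell pathways, 48 had a window, and the octamer was in 7 of them, or 11.9% of their 59 windows. The sites of a pair of these genes are shown with the octamer in capitals, Sucnr1 encoding the succinate receptor and Hpgds a prostaglandin D synthase. This share was one of 14 looked at and was not tested.
Sucnr1 (chr3:60081810-60081839, plus strand): ggctgcataatATGCAAATcagactgcact
Hpgds (chr6:65144886-65144915, minus strand): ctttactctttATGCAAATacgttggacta

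The first question was at what level the genes stood in each group. Levels are CPM scaled by TMM over all 24 libraries. Per kilobase of exon, the order in WT SI was Sh2d6 (6.05 ± 5.18 CPM per kb, SD, n = 6), Trpm5 (3.74 ± 1.48), Rgs13 (3.19 ± 0.489), Pou2f3 (3.04 ± 0.877), Dclk1 (1.46 ± 0.346), Ptgs1 (0.914 ± 0.145), Alox5 (0.902 ± 0.283), Gfi1b (0.421 ± 0.0814) and Il25 (0.0986 ± 0.028). The first 4 of these overlap within 1 SD, as do Ptgs1 and Alox5, whereas Gfi1b and Il25 stood below the rest.

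**Figure D1:**
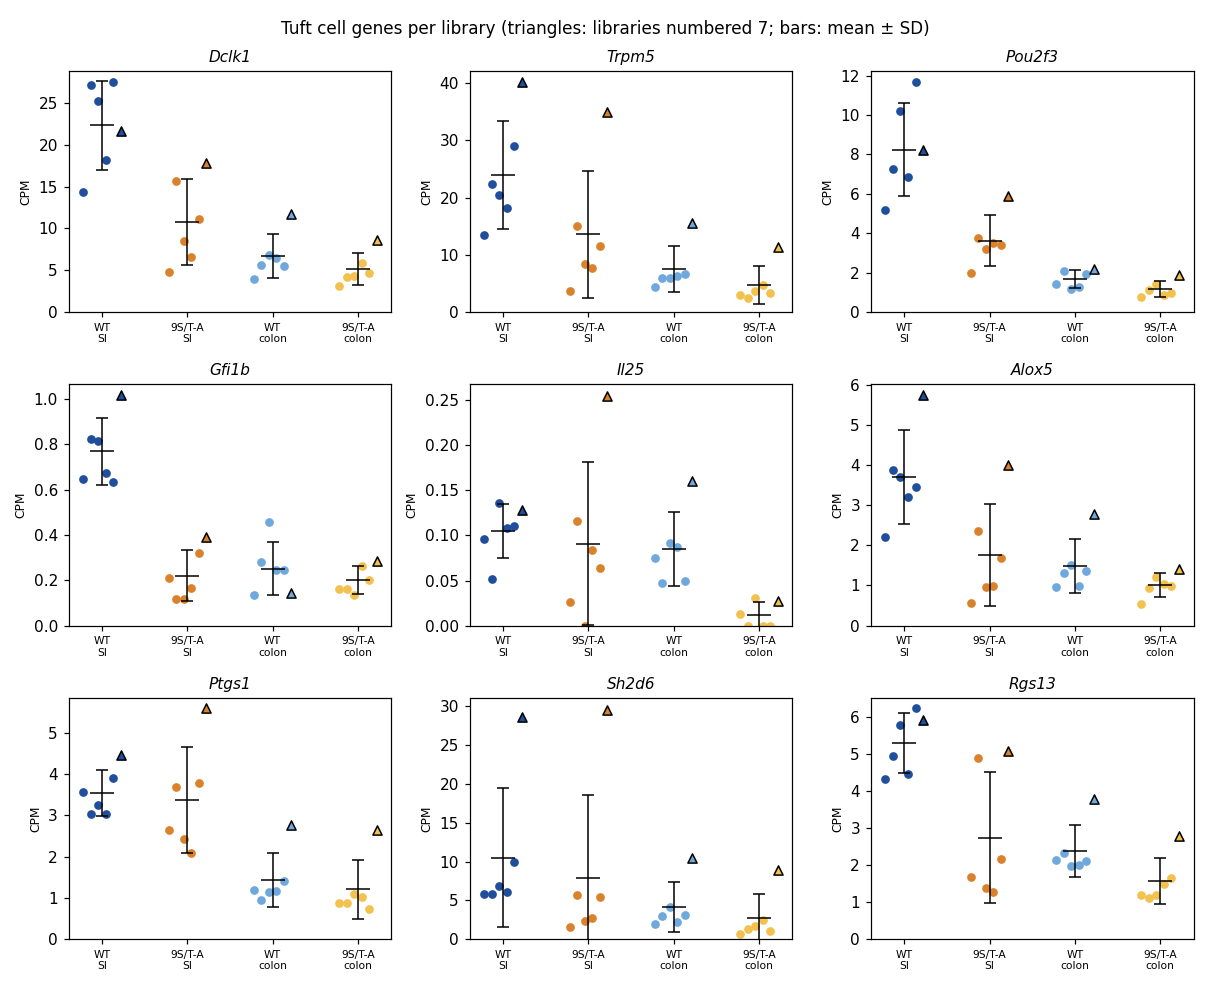
CPM (linear axis from 0) of the 9 tuft cell genes in each of the 24 libraries, with the mean and SD of each group of 6; lower SD bars are clipped at 0. Triangles mark the libraries numbered 7, which are the highest of their group for Sh2d6 and Trpm5 in all 4 groups, and for most genes WT SI stands highest.

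The second question was whether the 9S/T-A change altered these genes in SI. All 8 genes that passed the count filter had a negative log2 fold change (9S/T-A minus WT), and 2 of them, Gfi1b and Pou2f3, passed the test (edgeR quasi-likelihood, Benjamini-Hochberg adjusted p under 0.05 over 16236 genes). Over all genes tested, 1.94% were called, 168 higher and 147 lower (78 and 190 with library totals as the only scaling). The median log2 fold change was -1.0 over the 8 genes and 0.0 over all genes. Gfi1b was 0.636, 0.743 and 1.02 CPM (lowest, median, highest) in WT SI and 0.116, 0.189 and 0.393 in 9S/T-A SI. The groups did not overlap, as for 2.07% of all genes tested, and Gfi1b fell by 1.76 on the log2 scale (SE 0.301, edgeR adjusted p = 0.00637). It rests on low counts, 27 to 36 per WT library and 5 to 20 per 9S/T-A library. Pou2f3 was 5.19, 7.75 and 11.7 CPM in WT SI against 1.97, 3.47 and 5.91 in 9S/T-A SI. It fell by 1.18 on the log2 scale (SE 0.239, edgeR adjusted p = 0.0197), with 5 of 6 mutant libraries below the lowest WT library. That call was lost when WT SI 4, 9S/T-A SI 4 or 9S/T-A SI 5 was left out (edgeR adjusted p = 0.0512, 0.052 and 0.0512).

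The marker kinase Dclk1 was 14.3, 23.4 and 27.5 CPM in WT SI against 4.75, 9.82 and 17.8 in 9S/T-A SI. Its log2 fold change was -1.05 (SE 0.281), with an edgeR adjusted p of 0.0749. It was called by DESeq2 (adjusted p = 0.00679) and in the joint fit of all 24 libraries (edgeR adjusted p = 0.0447). Trpm5 was 13.5, 21.4 and 40.2 CPM against 3.75, 10 and 34.97, with a log2 fold change of -0.81 (SE 0.422). The channel's groups overlapped, with 4 of 6 mutant libraries below the lowest WT library. Alox5 (-1.05, SE 0.385) and Rgs13 (-0.94, SE 0.326) also missed the threshold, at edgeR adjusted p = 0.196 and 0.175. Without the library 9S/T-A SI 7, 5 of the 8 genes passed, where 1.73% of all genes were called: Gfi1b, Pou2f3, Dclk1 (edgeR adjusted p = 0.0263), Trpm5 (0.0449) and Alox5 (0.031). Ptgs1 differed little, at 3.55 ± 0.565 CPM in WT SI against 3.37 ± 1.28 in 9S/T-A SI (SD, n = 6; log2 fold change -0.06, SE 0.215). Sh2d6 had the largest SE of the 8, with a log2 fold change of -0.39 (SE 0.655) that became 0.21 without WT SI 7 and reached -1.55 among the other fits that left out 1 library. Atoh1, the edited gene itself, was 92.3 ± 15.5 CPM in WT SI against 75.03 ± 11.04 in 9S/T-A SI and did not pass the test (log2 fold change -0.3, SE 0.118, edgeR adjusted p = 0.23). Whether reads over the edited codons were lost in alignment was not tested.

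Markers of other cell types also stood at other levels in these groups, with no test made. The 6 stroma and endothelium markers summed to 6.54 to 18.7 CPM in WT SI against 3.27 to 7.98 in 9S/T-A SI, with Col3a1 at 0 in both, Cdh5 at 0 in WT and Dcn at 0 in 9S/T-A. Vim made up most of that sum (10.7 ± 4.5 against 4.37 ± 1.78 CPM), while the endothelial Pecam1 was 0.485 ± 0.118 against 0.501 ± 0.171. The 6 macrophage markers summed to 5.86 to 7.82 CPM against 3.36 to 5.32, each with counts in both groups. Itgam made up most of that sum (4.41 ± 0.465 against 2.9 ± 0.771 CPM), and Itgax was 0.964 ± 0.314 against 0.492 ± 0.295. Cd68 was about level (1.2 ± 0.259 against 1.14 ± 0.446). Csf1r, Adgre1 and C1qa had at most 9, 3 and 4 counts in a WT SI library, and the means of Adgre1 and C1qa were not lower in 9S/T-A SI. The 7 lymphocyte markers overlapped (11.4 to 26.2 against 8.94 to 26.4 CPM), and none was at 0. Other lists moved in both directions. Higher in 9S/T-A SI were the mean sums of goblet (248000 CPM in WT, 302000 in 9S/T-A), enteroendocrine (424, 467), mast cell (3.85, 4.52) and epithelium markers (8810, 9980). Lower were those of Paneth (39100, 30000), stem (943, 791) and platelet and megakaryocyte markers (23.1, 21.8). The ranges of each of these sums overlapped. The part of any of these cells in the difference of the tuft cell genes was not tested.

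**Figure D2:**
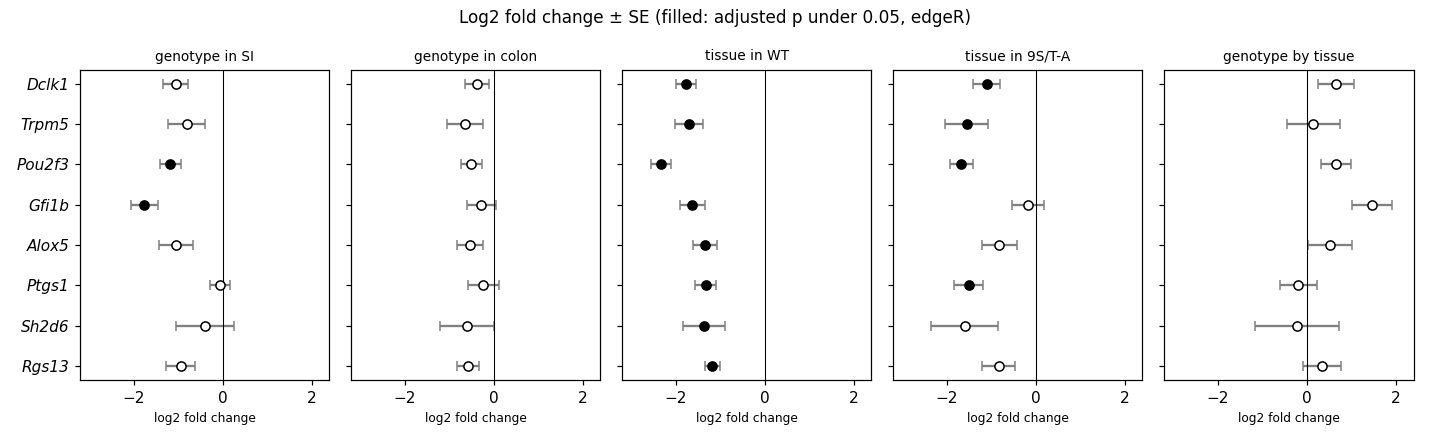
Log2 fold change (x axis) ± SE of the 8 tested tuft cell genes in the 5 comparisons, negative where 9S/T-A is below WT, or colon below SI; filled points have an edgeR adjusted p under 0.05. Filled points number 2 for genotype in SI, 0 in colon, 8 for tissue in WT, 4 for tissue in 9S/T-A and 0 for genotype by tissue.

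In colon, where the same genotype question was asked, 0 of the 8 tested genes passed (edgeR), 1 had an unadjusted p under 0.05 (Rgs13), and DESeq2 called 0. Over all 16997 genes tested, 0.318% were called and 1497 had an unadjusted p under 0.05 (edgeR). The 8 log2 fold changes were again negative, between -0.64 for Trpm5 and -0.23 for Ptgs1, with a median of -0.52 against 0.0 over all genes. Dclk1 was 6.7 ± 2.63 CPM in WT colon and 5.12 ± 1.93 in 9S/T-A colon, and Pou2f3 was 1.68 ± 0.438 and 1.17 ± 0.408 (SD, n = 6). Gfi1b, which fell in SI, was 0.135, 0.246 and 0.456 CPM in WT colon and 0.135, 0.183 and 0.287 in 9S/T-A colon. In both colon groups it stood about where it stood in 9S/T-A SI.

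Il25 did not pass the count filter in any comparison. It had 26 counts in all in WT SI (2 to 6 per library), 25 in 9S/T-A SI (0 to 13, 1 library at 0), 34 in WT colon (3 to 11) and 5 in 9S/T-A colon (0 to 2, 3 libraries at 0). The mutant colon libraries all lay below the WT colon libraries in CPM; among the genes tested, 0.906% did not overlap between these groups. Fitted without the filter, Il25 stood at -2.67 on the log2 scale in colon (edgeR adjusted p = 0.232) and DESeq2 gave -2.85 (adjusted p = 0.0849). In SI the corresponding edgeR value was -0.17.

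The interaction asks whether the genotype difference was unlike in the 2 tissues. 0 of the 8 genes passed by edgeR and 0 by DESeq2, against 0.412% of all genes by edgeR (74 genes, 52 higher and 22 lower). With library totals only, 65 genes were higher and 8 lower, and 342 were called with the libraries of a number and genotype as a block. Of the 8 genes, 1 had an unadjusted p under 0.05 (edgeR), against 1740 of all 17953 genes. Gfi1b was the gene with the smallest p: its genotype difference was 1.46 higher on the log2 scale in colon than in SI (SE 0.449, unadjusted p = 0.00332, edgeR adjusted p = 0.189, and 0.0658 with the block). For the other 7 the difference lay between -0.22 (Sh2d6) and 0.66 (Dclk1 and Pou2f3). The genes that passed in SI and not in colon are therefore not shown to differ between the tissues.

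The tissues were then compared within each genotype. These comparisons use the same libraries as the genotype comparisons. In WT, all 8 tested genes were lower in colon than in SI and passed the test, where 63.6% of all genes tested were called (5625 higher and 5169 lower, or 12241 and 1903 with library totals only). The median over the 8 genes was -1.5, against 0.03 over all genes. Pou2f3 fell the most, by 2.33 on the log2 scale (SE 0.215, edgeR adjusted p = 1.59e-07), from 5.19, 7.75 and 11.7 CPM in SI to 1.17, 1.68 and 2.2 in colon. Dclk1 fell by 1.77 (SE 0.23), Trpm5 by 1.7 (SE 0.305) and Gfi1b by 1.63 (SE 0.282). The eicosanoid enzymes Alox5 and Ptgs1 fell by 1.34 (SE 0.268) and 1.33 (SE 0.232). The signalling genes Sh2d6 and Rgs13 fell by 1.37 (SE 0.476) and 1.18 (SE 0.172); the call for Sh2d6 was lost without WT SI 7 (edgeR adjusted p = 0.112), in the joint fit of all 24 libraries (0.0861) and with library totals only (0.222). With library totals only, Alox5 was lost too (edgeR adjusted p = 0.0609). The groups did not overlap for 5 of the 9 genes, against 43.5% of all genes tested. Il25 was 0.105 ± 0.0298 CPM in WT SI and 0.0849 ± 0.0412 in WT colon.

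In 9S/T-A, 4 of the 8 genes fell from SI to colon and passed, where 60.9% of all genes were called (5576 higher and 4743 lower, or 12546 and 1653 with library totals only). These were, by log2 fold change, Pou2f3 (-1.67, SE 0.264), Trpm5 (-1.55, SE 0.485), Ptgs1 (-1.51, SE 0.324) and Dclk1 (-1.1, SE 0.308). Sh2d6 stood at -1.6 on the log2 scale (SE 0.75, edgeR adjusted p = 0.0784) and Rgs13 at -0.83 (SE 0.369, 0.0637). With the libraries of the same number paired, both passed, at edgeR adjusted p = 0.000461 and 0.0301. Gfi1b did not pass between the mutant tissues (0.22 ± 0.113 and 0.202 ± 0.0612 CPM, SD, n = 6; log2 fold change -0.17, SE 0.352). The call for Trpm5 was lost without 9S/T-A SI 7 (edgeR adjusted p = 0.0552).

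The tissue values depend on scale. The summed goblet cell markers took 248000 CPM on average in WT SI and 38200 in WT colon. With library totals as the only scaling, the median of all genes rose to 0.74 in WT and 0.85 in 9S/T-A. Relative to that median, Pou2f3 stood at -2.36 and -1.69 and Dclk1 at -1.79 and -1.12, close to the TMM values. A change of scaling moves all genes by nearly the same amount, so this closeness was fixed in advance. It cannot tell which scaling is right. Gfi1b in 9S/T-A was at 0.64 with library totals only, or -0.21 relative to the median. Markers of other cells also differed between tissues. The lymphocyte sum was 11.4 to 26.2 CPM in WT SI against 0.365 to 0.887 in WT colon. The mast cell sum was 2.87 to 5.65 and 0.334 to 1.03 CPM, most of it Tpsb2 (3.43 ± 0.827 against 0.535 ± 0.224). Cpa3 and Ms4a2 each had 1 count in all in WT SI and 0 in WT colon, and Fcer1a had 1 and 4. The part of these cells in the tissue difference was not tested.

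The members did not vary independently between libraries of a group. In the libraries numbered 7, Sh2d6 was 28.6 CPM in WT SI, 29.5 in 9S/T-A SI, 10.4 in WT colon and 8.96 in 9S/T-A colon. The other libraries ranged from 5.78 to 9.997, 1.6 to 5.69, 1.95 to 4.19 and 0.59 to 2.42 CPM, so number 7 stood at 4.14, 8.28, 3.63 and 6.3 times the mean of the others. Trpm5 was likewise highest in number 7 in all 4 groups, at 1.94, 3.77, 2.66 and 3.36 times the mean of the others. Alox5 and Ptgs1 were highest in number 7 in every group as well. Dclk1, Pou2f3 and Rgs13 were highest in number 7 in 3 groups but not in WT SI, where Dclk1 was 0.962 and Pou2f3 0.998 times the mean of the others. Gfi1b was below that mean in WT colon (0.533 times) and above it in the other 3 groups. The libraries numbered 2 were often the lowest, for 4 of the 8 genes in 9S/T-A colon and for 5 in each of the other 3 groups.

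Atoh1 did not share this pattern: number 7 was 1.09, 1.13, 0.813 and 0.746 times the mean of the others. The summed platelet and megakaryocyte markers were highest in number 7 in all 4 groups (26.1, 29.4, 1.28 and 1.6 CPM). The markers of this list did not all follow: Itga2b was highest in number 7 in every group (2.17, 2.22, 0.64 and 0.698 CPM), and Pf4 in none. Gp1bb made up most of the sum in SI. It was highest in number 7 only in the 9S/T-A groups, and lowest there in WT colon (0.335 CPM). Ppbp was at 0 in 3 groups. In colon the lymphocyte sum was also highest in number 7 (0.887 and 1.03 CPM) and the epithelium sum lowest (3740 and 3220 CPM). Ms4a1 was the largest part of that lymphocyte sum (0.524 and 0.547 CPM), on at most 36 and 40 counts per library. In WT colon Cd3e was lowest in number 7 (0.0436 CPM), and Cd3g and Cd8a were highest in number 3. In 9S/T-A colon Cd3g and Cd8a were highest in number 7, and Cd3e in number 5. The goblet sum was lowest in number 7 in both colon groups (30200 and 30500 CPM) and in neither SI group. The stem sum was lowest in number 7 in WT SI and 9S/T-A SI (770 and 576 CPM), but highest in 9S/T-A colon (83.2). The Paneth sum was lowest in number 7 in 9S/T-A SI only, and the mast cell sum in every group but WT colon. WT SI 7 was the shallowest library, at 35967875 counted reads. Whether any of these bears on the tuft cell genes was not tested, and the labels give no batch that sets number 7 apart.

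**Figure D3:**
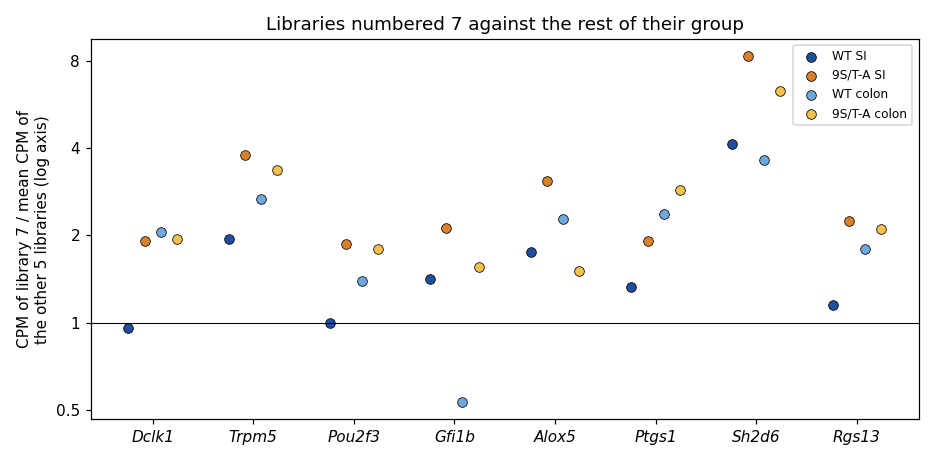
CPM of the library numbered 7 divided by the mean CPM of the other 5 libraries of its group (log axis) for 8 tuft cell genes, 1 point per group. Sh2d6 lies between 3.63 and 8.28 and Trpm5 between 1.94 and 3.77, whereas Dclk1 and Pou2f3 lie at 0.962 and 0.998 in WT SI.

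Over the 24 libraries, the deviations of log2(CPM + 0.5) from the group means gave a median Pearson r of 0.748 over the 28 pairs of the 8 genes, and 0.544 over the 20 libraries without number 7. The points share libraries and depth, and these are descriptions. Trpm5 followed the mean of the other members most closely (r = 0.967, and 0.886 without number 7) and Gfi1b least (0.389 and 0.175). Of 17945 other genes, those named here among the 8 whose deviations were most like the mean of the members were Sh2d7 (r = 0.961), Pik3r5 (0.958), Hap1 (0.935), Siglecf (0.931), Sirt4 (0.929), Ffar3 (0.921) and Spib (0.916). 5 of these 7 are on the lists of tuft cell pathway genes, and Hap1 and Sirt4 are on none. Without number 7, Sh2d7 and Spib kept r = 0.938 and 0.924, while Hap1 and Sirt4 came to 0.775 and 0.745. Values of r above 0.5 were common, at 17.04% of the ranked genes, and 32 of the 54 pathway genes ranked exceeded it.

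The other genes of the pathway were taken from 6 lists of 59 genes. In SI, 4 of the 51 tested fell in 9S/T-A and 0 rose, against 1.94% of all genes, and 42 of the 51 had a negative log2 fold change (median -0.48). Among 22 other tuft cell markers, 3 fell and all 22 were negative. By log2 fold change these were Kctd12 (-0.99, SE 0.17), Plcg2, a phospholipase of immune-type receptor signalling (-0.87, SE 0.145), and Fyb, an adaptor (-0.66, SE 0.159). Kctd12 was 44.98, 71.6 and 75.9 CPM in WT SI against 21.8, 35.5 and 41.6 in 9S/T-A SI. Among 6 transcriptional regulators, Sox4 fell by 0.56 (SE 0.127, edgeR adjusted p = 0.036), and all 6 were negative. None of 7 tested taste-type signalling genes, 6 eicosanoid genes, 5 genes of the type 2 cytokine circuit or 5 paralogs of the members passed. The cytokine circuit, which includes receptors carried by many cell types, had a median of 0.1. The most abundant gene of 5 of the lists did not pass in SI: Itpr3 was 295 ± 49.1 CPM in WT SI against 309 ± 52.02 in 9S/T-A SI (SD, n = 6), Lta4h 86.97 ± 10.5 against 81.7 ± 16.3, Il13ra1 148 ± 14.4 against 163 ± 17.6, Cd24a 623 ± 44.8 against 499 ± 64.7, and Trpm4, a paralog of Trpm5, 273 ± 18.8 against 320.0 ± 34.3. Sox4 was the most abundant of the regulators, at 41.8 ± 7.54 against 28.4 ± 4.13 CPM.

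In colon 0 of 52 pathway genes passed (edgeR) and the median was -0.18. An unadjusted p under 0.05 (edgeR) was reached by 10 of the 52, against 1497 of all 16997 genes. In the interaction 2 of 54 passed. Kctd12 was 1.05 higher on the log2 scale in the colon contrast (SE 0.203, edgeR adjusted p = 0.0141), and Alox15, a paralog of Alox5, was 5.37 higher (SE 0.989, adjusted p = 0.00978) on counts of 0 to 71 per library.

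**Figure D4:**
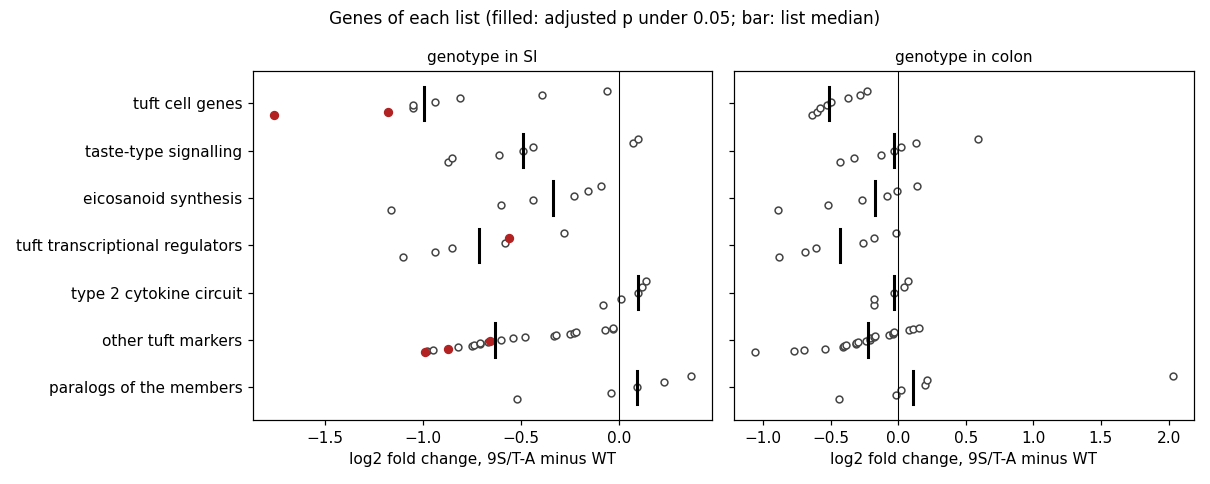
Log2 fold change of 9S/T-A minus WT (x axis) for each tested gene of the tuft cell genes and the 6 pathway lists, in SI and in colon; filled points have an edgeR adjusted p under 0.05 and bars are list medians. In SI 2 tuft cell genes and 4 pathway genes are filled, all below 0, and in colon none is filled.

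Between the tissues of WT mice, 43 of 51 pathway genes passed, 32 lower and 11 higher in colon, where 63.6% of all genes were called. Lower in colon, by log2 fold change, were Alox5ap, the partner protein of ALOX5 (-2.98, SE 0.246), Avil, an actin-binding protein (-2.39, SE 0.224), Rgs2 (-2.32, SE 0.141), Hmx3 (-2.15, SE 0.318), Spib (-2.03, SE 0.208), Ffar3 (-1.56, SE 0.4), Plcb2, the phospholipase of the taste cascade (-1.54, SE 0.296), Stat6 (-0.88, SE 0.0755) and Il4ra (-0.82, SE 0.0989). Higher in colon were Smpx (2.53, SE 0.195), Pla2g4a, which frees arachidonic acid (1.91, SE 0.141), and Dclk2, the paralog of Dclk1 (1.01, SE 0.286). In 9S/T-A, 38 of 52 passed, 24 lower and 14 higher, against 60.9% of all genes. Among them, the lower ones were Alox5ap (-2.72, SE 0.432), Rgs2 (-2.69, SE 0.184), Avil (-2.19, SE 0.26), Hmx3 (-1.93, SE 0.456), Ffar3 (-1.51, SE 0.604), Itpr3 (-1.29, SE 0.117), Stat6 (-0.94, SE 0.0815) and Il4ra (-0.9, SE 0.137). Higher were Alox15 (5.23, SE 0.705), Smpx (2.42, SE 0.255), Pla2g4a (2.26, SE 0.0941) and Runx1 (2.06, SE 0.125).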

How the data were processed

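Sorted EpCAM+ tdTom+ cells were profiled by stranded poly(A) RNA-seq in 24 libraries. The authors aligned reads with TopHat2 2.1.1 to GRCm38.p3 and deposited raw read counts per gene from featureCounts (Subread 1.5.2), counted on exons by strand. The authors' own test used DESeq2 1.14.1 and was not used here. Library totals were 35967875 to 65796932 counts, and intervals of counts cover counting error only. Groups came from the group label of each sample and replicate numbers from the titles. The files also give gene length, used for CPM per kb.

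Counts were tested with edgeR 4.0.16 (R 4.3.3): filterByExpr by group, TMM scaling, quasi-likelihood F test, Benjamini-Hochberg adjustment over all genes tested, called under 0.05, in 5 comparisons. SE is the log2 fold change divided by the square root of F. On simulated data, 79% of genes changed 2-fold and 94% changed 4-fold were recovered for genotype in SI (16236 genes), 74% and 98% for genotype in colon (16997), 67% and 97% for tissue in WT (16979), 77% and 95% for tissue in 9S/T-A (16938), and 55% and 89% for the interaction (17953). Among the genes called in the simulations, the false share ran from 3.91% for genotype in colon to 7.69% for the interaction. The changed genes were drawn at random, and counts were independent between libraries, with no shared effect of a number. Recovery of the tuft cell genes themselves was thus not measured. Alternatives were DESeq2 1.42.0, other scalings and filters, sex, the replicate number as a block, a joint fit and leaving out libraries.

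Same-numbered libraries correlated in their deviations from group means by over 0.1 in all 6 pairs in both tissue comparisons (lowest 0.154 in WT, 0.14 in 9S/T-A). They did so in 4 of 6 pairs for genotype in SI and 5 of 6 in colon. The mean r was 0.274 and 0.347 for tissue in WT and 9S/T-A, and 0.186 and 0.389 for genotype in SI and colon. The lowest r was -0.07 for genotype in SI and 0.023 in colon, and the highest, 0.659 and 0.836, was that of number 7. Libraries of different numbers were not compared, and libraries of a number also share their sex. These values therefore cannot tell whether the numbers link samples. The main fits of all comparisons were unpaired. With the replicate block, 8 tuft cell genes were called for tissue in WT and 6 in 9S/T-A, where 69.0% and 68.7% of all genes were called. The labels do not say that numbers mark mice. The series description gives 6 mice in all, while each genotype has 6 libraries per tissue, so the number of mice behind each n = 6 is unclear, and p-values measure the spread between these libraries.

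Members and gene lists were chosen with earlier results of these data known. Genes named were all members, pathway genes called in a genotype comparison or the interaction, and the 2 called genes per list with the largest change in each tissue comparison, the most abundant gene of each list, and the 8 genes most correlated with the members, 1 of which is not reported here; Atoh1 was given as the edited gene. Hand-chosen lists of cell type markers were summed as CPM.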

Additional observations from a re-analysis of the deposited data

Results flagged for a closer look

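In 36 combinations of gene and group, the gap between the highest or lowest library and its nearest neighbour was compared with the range of the group (Dixon's test at its 95% critical value for 6 libraries), and 13 exceeded it. Chance gives about 1 in 20 only where values are normally distributed. The values here were CPM without logs, and those of Il25 rest on few counts, so that rate need not hold. All 13 were libraries numbered 7, at the high end. Sh2d6 exceeded it in all 4 groups, at 28.6 CPM in WT SI, 29.5 in 9S/T-A SI, 10.4 in WT colon and 8.96 in 9S/T-A colon. Trpm5 did so at 34.97 CPM in 9S/T-A SI, 15.6 in WT colon and 11.4 in 9S/T-A colon. The eicosanoid enzyme Ptgs1 did so in both colon groups, at 2.76 CPM in WT and 2.64 in 9S/T-A, and Rgs13 likewise, at 3.77 and 2.79 CPM. Dclk1 (11.7 CPM) and Alox5 (2.78 CPM) did so in WT colon. The 13 are not independent, since the genes share the 4 libraries. Leaving number 7 out of every group was a choice made after seeing the data. Dclk1 then joined Gfi1b and Pou2f3 among the called genes in SI (edgeR adjusted p = 0.039), where 1.62% of all genes were called. In colon 0 of the 8 were called, and 0.443% of all genes. Between the tissues of 9S/T-A mice, Sh2d6 (edgeR adjusted p = 0.00734) and Rgs13 (0.0458) joined the 4 called, where 63.1% of all genes were called.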

How the results depend on the processing

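The count of tuft cell genes called in SI was 2 or 3 under DESeq2, other scalings, other filters, sex as a covariate and the joint fit. It was between 1 and 5 when 1 library was left out, where 1.15% to 3.35% of all genes were called. Gfi1b was called in all 12 of those fits and Pou2f3 in 9. With the replicate block, 5 genes were called in SI (Dclk1, Trpm5, Pou2f3, Gfi1b and Alox5) and 2 in colon (Trpm5 and Rgs13), while every other planned setting gave 0 in colon; the genotype groups share only a number, and all genes called rose from 315 to 477 and from 54 to 385. With number 7 left out as well, the block gave 5 in SI and 1 in colon (all genes called, 228 and 148). Leaving out 1 library gave 0 in colon, 7 to 8 for tissue in WT, 3 to 6 for tissue in 9S/T-A and 0 for the interaction. In the same fits, 60.9% to 66.1% of all genes were called for tissue in WT and 57.98% to 63.8% for tissue in 9S/T-A. The shares were 0.175% to 0.422% in colon and 0.275% to 0.616% for the interaction. With library totals only, tissue in 9S/T-A gave 1 instead of 4, where 83.8% of all genes were called. Tissue in WT gave 6 instead of 8 with library totals only (83.3% of all genes) and 7 in the joint fit (62.3%). The median shift of all genes is given above. DESeq2 and the edgeR fit without a filter also tested Il25. For tissue in 9S/T-A they called it (adjusted p = 0.0132 and 0.0177), where 49.3% and 41.3% of all genes were called. All genes called under DESeq2 were 780 in SI, 247 in colon and 258 in the interaction, and 520 and 103 in SI and colon in the joint fit; in colon they were 90 without a filter and 89 with sex.

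Signs turned only for genes that had not been called. Ptgs1 in SI was 0.01 without WT SI 7, 0.01 without 9S/T-A SI 4 and 0.04 without 9S/T-A SI 5, and in colon 0.08 without WT colon 7; its other values reached -0.28 and -0.65. Sh2d6 in SI was 0.21 without WT SI 7 and reached -1.55. Gfi1b between mutant tissues was 0.64 with library totals only and 0.1 without 9S/T-A SI 7, and reached -0.3. In the interaction, Trpm5 was -0.03, -0.04 and -0.33 without WT SI 7, 9S/T-A SI 2 and 9S/T-A colon 7 (up to 0.72 in the others), Ptgs1 was 0.04 and 0.11 without 9S/T-A SI 7 and WT colon 7 (down to -0.58), and Sh2d6 was 0.94 and 0.3 without the same libraries (down to -1.14) and 0.01 with the block and no number 7. The cause was not tested. Depth limits Il25 and Gfi1b most.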
